A study of Drosophila melanogaster with 11 samples.

Results

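The genes described here are the 6 heat-inducible Hsp70 copies of Drosophila melanogaster (Hsp70Aa, Hsp70Ab, Hsp70Ba, Hsp70Bb, Hsp70Bbb and Hsp70Bc) and their close relative Hsp68. They were found by gene symbol, 7 of 15603 genes, in each of 3 expression tables. Because the copies are near identical, their values were also added up, and the total is called the Hsp70 sum. RNA was sequenced in 11 libraries, 1 per condition, each from pooled animals, so there is no replicate error and no test between conditions. The intervals given below are 95% intervals that cover counting error only.

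In adult thorax, tubulinGeneSwitch flies were crossed to UAS-dOTC, to ND75 RNAi or to w1118 (control), and all 3 groups received RU486. GeneSwitch is a driver that RU486 switches on, dOTC is a misfolding mitochondrial enzyme, and ND75 is a subunit of respiratory complex I. The labels name the tubulin driver, whereas the study's text names a daughterless driver for this experiment. The control thus had the driver and the drug but no transgene, and came from another cross. In fat body, the organ that combines functions of liver and adipose tissue, one genotype was PGAM5 null (DaGeneSwitch and UAS-dOTC, both in a PGAM5 null background) and the other was DaGeneSwitch crossed to UAS-dOTC, called WT here although it carries both transgenes. PGAM5 is a mitochondrial phosphatase. Each genotype was sampled with RU486 and without it, as L3 larvae and as adults, and the adults had received RU486 during development only. No library had RU486 without UAS-dOTC in fat body, so effects of the drug and of dOTC cannot be told apart there.

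Inducible Hsp70 proteins are ATP-dependent chaperones that hold and refold damaged proteins, and Hsp68 is a related chaperone of the same family. Their genes lack introns and are switched on within minutes of heat or other protein damage by the heat shock factor Hsf, which binds heat shock elements in their promoters. In unstressed flies they are nearly silent, while constitutive cognates (Hsc70 proteins) serve the cell's daily needs. Hsp70Aa (FBgn0013275) and Hsp70Ab (FBgn0013276) form a divergent pair on chromosome arm 3R. Hsp70Ba (FBgn0013277), Hsp70Bb (FBgn0013278), Hsp70Bbb (FBgn0051354) and Hsp70Bc (FBgn0013279) form a second cluster on the same arm, which also holds Hsp68 (FBgn0001230). Each of the 7 genes has 1 annotated transcript, of 2231 bases for Hsp68 and of 2324 to 2386 bases for the Hsp70 copies.

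Values were FPKM, fragments per kilobase of transcript scaled to library size, as deposited. The steps between low FPKM values put 3000000 (ND75 RNAi thorax) to 8980000 (WT larvae with RU486) fragments behind the libraries. At that depth the Hsp70 sum rested on 58 fragments in PGAM5 null larvae with RU486 and on 25803 in WT adults with RU486. The targeted genes followed the labels: ND75 was at 53.8 FPKM in ND75 RNAi thorax, against 572 in control thorax, and Pgam5 was at 0 to 0.841 FPKM in the 4 PGAM5 null libraries, against 10.1 to 16.8 in the 4 WT fat body libraries. The 8 flight muscle markers summed to 9702 to 22307 FPKM in thorax and to 133 to 744 in fat body, and the 10 fat body markers to 14227 to 17433 in thorax and 62382 to 144193 in fat body. A header line in the adult table reads larval fat body, but the yolk protein gene Yp1 was at 25125 to 41899 FPKM in that table's 4 libraries and at 0 to 0.243 in larvae, as the adult label requires. Several libraries also held RNA of other organs, and those values are given beside the results they accompany.

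**Figure D1:**
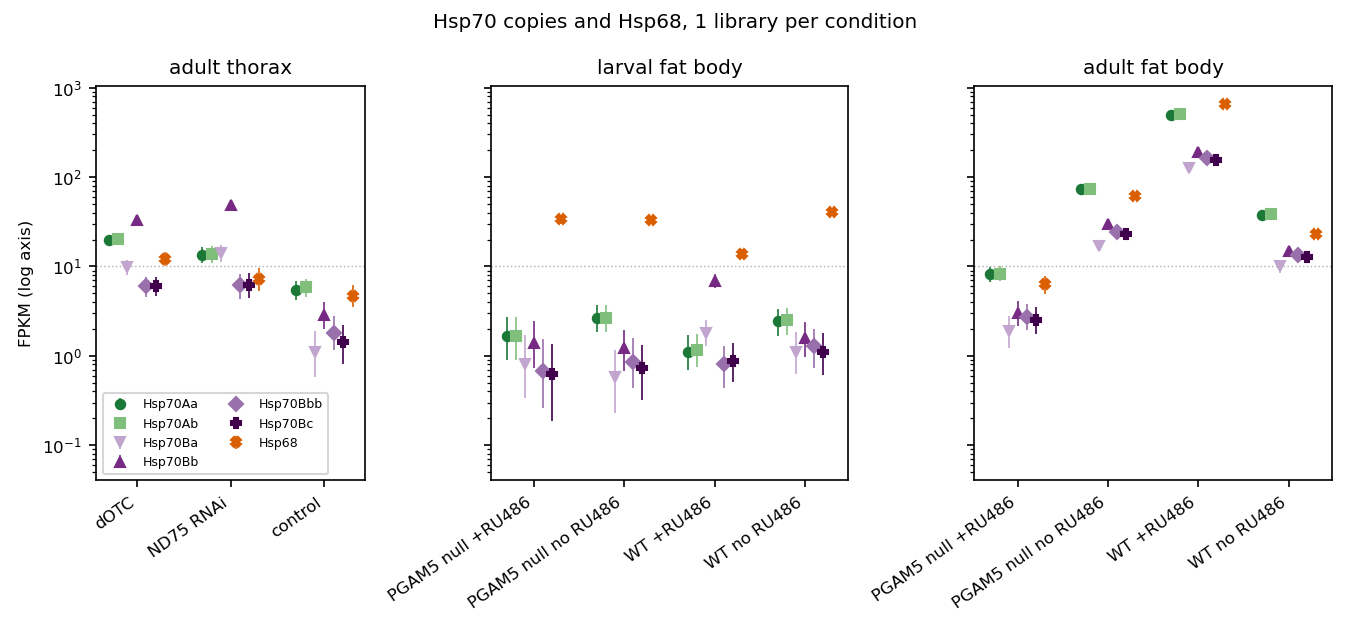
FPKM (log axis) of the 7 genes in the 3 thorax, 4 larval fat body and 4 adult fat body libraries, 1 point per gene and library, with 95% counting intervals. The dotted line marks 10 FPKM. All 7 genes were highest in WT adults with RU486, at 126 to 658 FPKM, and the Hsp70 copies were below 10 FPKM in every larval library.

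The largest values of all 7 genes were in the fat body of WT adults that had received RU486 as larvae. The Hsp70 sum was 1654 FPKM in these adults and 128 FPKM in WT adults without RU486, a ratio of 12.9 (95% interval 12.3 to 13.6). Hsp68 was at 658 FPKM with RU486 and 23.1 FPKM without, a ratio of 28.5 (25.5 to 32.0). In PGAM5 null adults the order was the opposite. There the Hsp70 sum was 26.7 FPKM with RU486 and 241 FPKM without, a ratio of 0.111 (0.0991 to 0.123), and Hsp68 was at 6.30 FPKM with RU486 and 60.7 FPKM without, a ratio of 0.104 (0.0814 to 0.131).

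The copies gave similar ratios in this contrast. Hsp70Aa had 501 FPKM in WT adults with RU486, against 37.9 without, and Hsp70Ab had 513, against 38.8. In the second cluster, Hsp70Bb had 193 FPKM with RU486, against 14.9 without, and Hsp70Bbb had 165, against 13.6. Hsp70Bc had 155 FPKM, against 12.8, and Hsp70Ba, the lowest copy, had 126, against 10.1. The 6 ratios lay between 12.1 and 13.2. Reads shared by the near-identical copies are divided among them, so these ratios are not independent measurements. In PGAM5 null adults the same copies had 1.88 (Hsp70Ba) to 8.33 FPKM (Hsp70Ab) with RU486, against 17.1 to 74.4 without, and the 6 ratios lay between 0.102 and 0.114.

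Following the thresholds used in the study's legends, a gene was called higher at a ratio of 3 or more and lower at 2-fold or more below, where the library in the denominator had at least 10 FPKM. In WT adults 0.319% of 5015 tested genes were called higher with RU486, 16 genes in all, and all 7 members were among them. They held ranks 1 (Hsp68) and 3 to 8 of the 5015 ratios. The rank between them belonged to Hsp27, a small heat shock protein. The other called genes were the small heat shock proteins Hsp22 and Hsp26, the co-chaperones stv and DnaJ-1, the heat-inducible noncoding RNA Hsromega and 3 genes from no chaperone list, which are named here after their values were seen: Obp99b, asparagine-synthetase and AttB. Of these 16 genes, 15 had a ratio below 1 in PGAM5 null adults, and the exception, AttB, an antibacterial peptide gene, was at 1.19. The median ratio of all tested genes there was 0.960, so a ratio below 1 was common. Of the 16, 11 were at 1/2 or less, including all 7 members, against 4.77% of 4506 tested genes. The members passed the filter there only through the library without RU486.

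In PGAM5 null adults 4.77% of 4506 tested genes were called lower with RU486, and all 7 members were among them. All 7 were below 10 FPKM with RU486 and were tested only through the library without RU486, where they were higher. The count thus describes the members and supports nothing further. The members did not lead the genes called lower: their ratios ranked 89 to 99 from the lowest, where those of the WT contrast stood at the top. The median log2 ratio with 1 FPKM added was 3.61 over the 7 members in WT adults and -2.93 in PGAM5 null adults, against -0.07 and 0.01 over all genes that had 1 FPKM or more in at least one of the paired libraries.

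The ratio of the RU486 ratios, WT over PGAM5 null, was 117 (104 to 131) for the Hsp70 sum, 275 (213 to 355) for Hsp68 and 107 to 128 for the single copies. This difference between genotypes rests on 4 libraries and was not tested beyond counting error. The genotypes also differed without RU486. The Hsp70 sum was 1.88 (1.78 to 1.99) times as high in PGAM5 null as in WT adults without RU486, and Hsp68 2.63 (2.31 to 3.003) times. All 7 members were higher in PGAM5 null there but none reached 3-fold, a threshold that 0.12% of 5015 genes passed. Scaled to the upper quartile, Hsp68 was at 3.15, past that threshold. Flight muscle markers were higher in this pair too, with a sum of 744 FPKM in PGAM5 null adults, against 320 in WT adults. All 5 that had 1 FPKM or more in either library were above 0 on the log2 scale. Gut markers went the other way: they summed to 66.9 FPKM in PGAM5 null adults, against 6797 in WT adults, with 9 of 9 called lower. In this pair 14.9% of 5015 genes were called lower. The part of these tissues in the result was not tested. With RU486, the PGAM5 null to WT ratio was 0.0161 (0.0145 to 0.0179) for the Hsp70 sum and 0.00956 (0.00758 to 0.0119) for Hsp68. All 7 members were called lower in this pair, as were 7.74% of 4613 genes. They were below 10 FPKM in the PGAM5 null library and were tested only through the WT library, where they were highest. The count thus describes the members and supports nothing further. These comparisons share libraries with each other and are not independent.

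**Figure D2:**
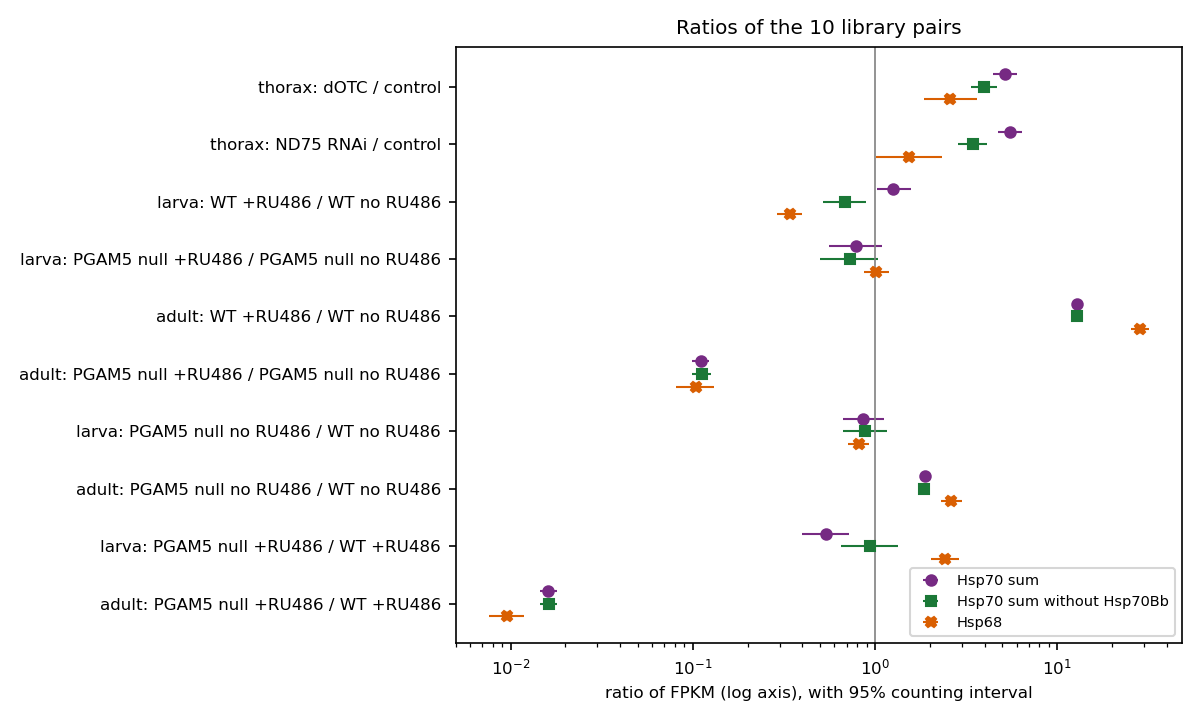
Ratio of FPKM (log axis) in the 10 library pairs, for the Hsp70 sum, the sum without Hsp70Bb and Hsp68, with 95% counting intervals. In adult fat body the RU486 ratios of WT and PGAM5 null fell on opposite sides of 1, and omitting Hsp70Bb moved the larval WT ratio across 1.

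The adult libraries also differed in RNA from other organs and from larval fat body. All 9 gut marker genes were lower in WT adults with RU486 than without, and their sum was 50.4 FPKM with RU486, against 6797 without; in PGAM5 null adults it was 352 with RU486, against 66.9 without. The 8 ovary markers summed to 1188 FPKM in PGAM5 null adults with RU486, against 68.0 without, and to 59.0 in WT adults with RU486, against 25.8 without. Larval fat body transcripts, low in all 4 libraries, were highest where Hsp70 was highest. Lsp1gamma, a larval serum protein gene, had 19.8 FPKM in WT adults with RU486 and 4.69 without, and 0.139 and 0.129 FPKM in PGAM5 null adults with and without RU486. Fbp1 was at 9.27 and 2.14 FPKM in WT adults with and without RU486, and at 0.0500 and 0 in PGAM5 null adults. Lsp2, another larval serum protein gene, had 27.1 and 6.35 FPKM in WT adults with and without RU486. In PGAM5 null adults it had 13.4 and 7.39, the opposite order to Hsp70 there. The spermathecal gene Send1, noticed after the values were seen, had 0.928 FPKM in PGAM5 null adults with RU486 and 61.6 without, and 65.9 and 43.5 in WT adults with and without. The part of these tissues in the Hsp70 and Hsp68 values was not tested. In such bulk samples, fewer expressing cells and less RNA per cell cannot be told apart.

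Several other heat shock genes were also highest in WT adults with RU486, but not all had the members' order over the other 3 adult libraries. In WT adults, 3 of 6 tested small heat shock proteins were called higher with RU486, and 9 of the 10 at 1 FPKM or more in either library had a log2 ratio above 0, with a median of 1.11. Hsp26 had 1021 FPKM with RU486, against 100.5 without, Hsp22 had 331, against 29.7, and Hsp27 had 283, against 12.1. In PGAM5 null adults 3 of 8 were called lower (Hsp22, CG7409 and CG4461), and the median log2 ratio was -0.79. Hsp22, a mitochondrial small heat shock protein, had 16.4 FPKM there with RU486, against 45.9 without. Hsp26 had 44.6, against 82.95, and Hsp27 had 19.8, against 25.9, and neither was called. CG7409 had 18.6 FPKM there with RU486, against 55.3 without, and CG4461 had 5.66, against 21.2. In WT adults CG7409 had 8.49 FPKM with RU486, against 9.72 without, and CG4461 had 5.35, against 4.01. Hsp22 thus had the order of Hsp70 and Hsp68, whereas without RU486 Hsp26 was lower in PGAM5 null than in WT adults, and Hsp27 was lowest in WT adults without RU486.

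Among the partners of Hsp70, stv, a BAG-domain co-chaperone, was at 177 FPKM in WT adults with RU486, against 35.4 without, and at 20.2 in PGAM5 null adults with RU486, against 52.9 without. DnaJ-1, an Hsp40 that stimulates the Hsp70 ATPase, was at 312 FPKM in WT adults with RU486, against 91.1 without, and at 65.8 in PGAM5 null adults with RU486, against 153 without. These were the only calls among 12 tested Hsp40 proteins and 12 tested Hsp90 and other co-chaperones in WT adults, and stv and DnaJ-1 were also the only calls, as lower, among 13 and 12 tested in PGAM5 null adults. Hsp83, the cytosolic Hsp90, had 2010 FPKM in WT adults with RU486, against 968 without, short of 3-fold, and 737 in PGAM5 null adults with RU486, against 1129 without. Hsromega had 228 FPKM in WT adults with RU486, against 70.1 without, and 60.7 in PGAM5 null adults with RU486, against 134 without.

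The constitutive relatives showed no difference of this size. The opposite calls took up 9.01% of genes in WT adults (lower) and 0.399% in PGAM5 null adults (higher). None of 5 tested Hsp70 cognates was called in either direction in either genotype, and Hsc70-4, the main cytosolic cognate, stayed between 1896 and 2128 FPKM in the 4 adult libraries. The median log2 ratio of the cognates was 0.24 in WT adults, with 6 of 6 above 0, and -0.08 in PGAM5 null adults, with 2 of 7 above 0. Hsf itself was at 15.1 to 17.4 FPKM in them, and Hsromega was the only call among 6 heat shock regulators in either genotype. Of 7 tested mitochondrial chaperones, 1 was called higher in WT adults, which was Hsp22, a gene that is also on the small heat shock protein list. None of 32 proteasome subunits was called in either genotype. Their median log2 ratio was 0.21 in WT adults, with 31 of 32 above 0, and -0.19 in PGAM5 null adults, with 2 of 32 above 0.

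**Figure D3:**
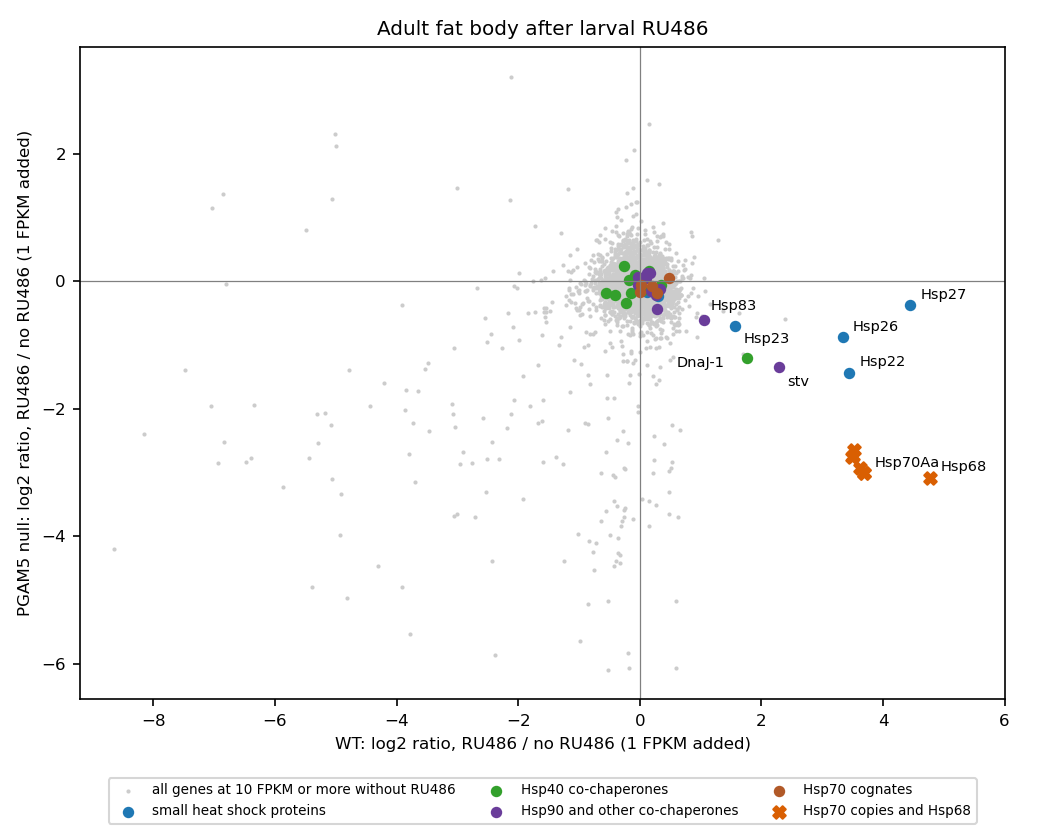
Log2 ratio of adults with RU486 to adults without it (1 FPKM added), in WT on the x axis and in PGAM5 null on the y axis, for genes at 10 FPKM or more without RU486 in both genotypes. The 7 members lie apart at the lower right. The labelled small heat shock proteins, stv and DnaJ-1 also lie right of 0, less far below 0 on the y axis, and the Hsp70 cognates lie near the origin.

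Genes were also ranked by the likeness of their pattern to the Hsp70 sum, as the Pearson r of log2(FPKM + 1) over the 8 fat body libraries among 7241 genes that reached 10 FPKM in at least 1 of them. The libraries share tissue contents and stage, so r is given as a description. The 8 most alike were stv (r = 0.987), DnaJ-1 (0.976), alphagamma-element:CR32865 (0.972), Hsromega (0.963), CG5687 (0.962), CG31686 (0.954), CG10469 (0.953) and CG32277 (0.947). The alphagamma-element transcript derives from repeats that lie among the Hsp70 genes of the second cluster. It had 21.9 FPKM in WT adults with RU486, against 3.90 without, and 3.29 in PGAM5 null adults with RU486, against 6.17 without. Hsp83 ranked 10 (r = 0.943), Hsp22 11 (r = 0.942) and Hsp68 1883 (r = 0.715). Above Hsp68 stood Hsc70-4 at 541 (r = 0.825) and Hsf at 1085 (r = 0.787). Hsc70-4 differed little among the adult libraries (1896 to 2128 FPKM) and was lower in larvae (562 to 667 FPKM). A high r can thus come from the difference between stages and need not mean the same order within adults. Other small heat shock proteins were less alike: r was 0.536 for Hsp26, -0.252 for Hsp27 and -0.411 for Hsp23.

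**Figure D4:**
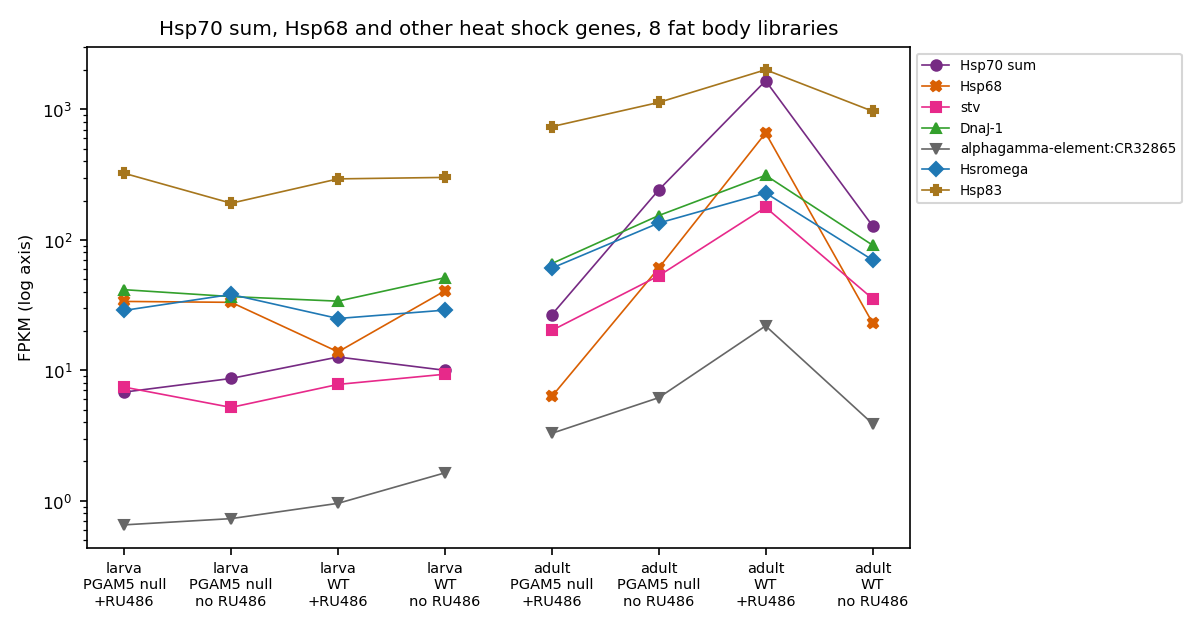
FPKM (log axis) of the Hsp70 sum, Hsp68 and 5 other heat shock genes in the 8 fat body libraries. These 5 ranked 1 to 4 and 10 by likeness to the Hsp70 sum over the same libraries, so their shared order is no separate result. Lines only join the points of a gene within a stage. In adults every gene shown was highest in WT with RU486 and lowest in PGAM5 null with RU486 and in larvae Hsp68 stood above the Hsp70 sum.

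In larval fat body, sampled while RU486 was being given, the Hsp70 copies were low. The Hsp70 sum was 6.80 FPKM in PGAM5 null larvae with RU486 and 8.66 without, and 12.6 in WT larvae with RU486 and 9.99 without. When the larval libraries were ranked by the sum, the intervals of all neighbours overlapped. Those of the lowest and the highest, PGAM5 null and WT larvae with RU486, did not. The ratio of that pair was 0.538 (0.397 to 0.719), and without Hsp70Bb it was 0.943 (0.654 to 1.34). No Hsp70 copy reached 10 FPKM in any larval library, so none was tested for a call. Hsp68 was above the 6 copies together in all 4 larval libraries, 1.09 to 4.95 times the Hsp70 sum in FPKM (in WT larvae with RU486, the lowest of these, the intervals of the levels overlapped), whereas it was 0.180 to 0.398 times the sum in adult fat body and 0.0711 to 0.254 times in thorax.

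Hsp68 was at 13.8 FPKM in WT larvae with RU486, against 40.6 without, a ratio of 0.341 (0.292 to 0.397). In PGAM5 null larvae it was at 33.7 FPKM with RU486, against 33.2 without, a ratio of 1.02 (0.867 to 1.19). Hsp68 was thus the only member tested in larvae, and it was called lower in WT, where 30.5% of 5225 tested genes were called lower and the median ratio of all tested genes was 0.707. It was not called in PGAM5 null larvae, where 17.5% of 4828 tested genes were lower, 1.55% were higher and the median ratio was 0.782. The ratio of RU486 ratios, PGAM5 null over WT, was 2.98 (2.40 to 3.70) for Hsp68 and was not tested beyond counting error. Scaled to the median ratio of each pair, the Hsp68 ratio was 0.482 in WT larvae and 1.30 in PGAM5 null larvae. Scaled to the upper quartile, it was 0.523 in WT larvae, no longer past the 2-fold threshold.

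Markers of other larval organs moved in the same comparisons. The 7 testis and male markers summed to 82.1 FPKM in WT larvae with RU486, against 508 without, with 6 of 7 called lower, and to 278 in PGAM5 null larvae with RU486, against 420 without, with 2 of 7 called lower. The 5 salivary glue genes summed to 59131 FPKM in WT larvae with RU486, against 134662 without, and to 37731 in PGAM5 null larvae with RU486, against 168451 without. The 9 gut markers summed to 8069 FPKM in WT larvae with RU486, against 9158 without, with 1 of 6 tested called lower. In PGAM5 null larvae they summed to 843 with RU486, against 7976 without, with 8 of 8 tested called lower. Small heat shock proteins were also lower with RU486 in larvae. Of 8 tested, 6 were called lower in WT and 5 in PGAM5 null larvae. Hsp23 had 261 FPKM in WT larvae with RU486, against 2170 without, and 119 in PGAM5 null larvae with RU486, against 3704 without. The part of organ content in the larval Hsp68 values was not tested.

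Hsp70Bb had the highest RU486 ratio of the copies in WT larvae. It had 6.90 FPKM in WT larvae with RU486, against 1.58 without, a ratio of 4.38 (2.75 to 7.30), while Hsp70Aa had 1.11, against 2.43, and Hsp70Ab had 1.16, against 2.51. Hsp70Ba had 1.81 FPKM in WT larvae with RU486, against 1.11 without, a ratio of 1.62 (0.864 to 3.20). In PGAM5 null larvae Hsp70Bb had 1.39 FPKM with RU486, against 1.21 without, a ratio of 1.15 (0.492 to 2.63). Without Hsp70Bb the sum of the other copies in WT larvae was 0.682 (0.521 to 0.893) times its value without RU486. For all 6 copies the ratio was 1.27 (1.02 to 1.57), so in FPKM as deposited its side of 1 depended on this copy. The median ratio of all tested genes in this pair was 0.707, within the interval of the other copies. Their ratio thus did not stand apart from the shift of the whole library.

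In adult thorax, all 7 members were higher in both mitochondrial stress libraries than in the control. The Hsp70 sum was 95.4 FPKM with dOTC and 102 FPKM with ND75 RNAi, against 18.5 FPKM in the control, which gives ratios of 5.17 (4.47 to 6.002) and 5.53 (4.74 to 6.46). The sums of the stressed libraries overlapped within counting error. Hsp68 had lower ratios, 2.58 (1.86 to 3.63) for dOTC and 1.55 (1.02 to 2.35) for ND75 RNAi. Both comparisons share the control library.

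None of the 7 members reached 10 FPKM in the control thorax, so none could be called by the first rule, under which 1.02% of 4308 genes were higher and 6.66% lower with dOTC, and 0.255% were higher and 8.64% lower with ND75 RNAi. Under a rule that asked for 10 FPKM in either library and added 1 FPKM to both, 3 of 4 members tested were called higher with dOTC (Hsp70Aa, Hsp70Ab and Hsp70Bb), against 3.01% of 4877 genes. With ND75 RNAi, 2 of 4 were called (Hsp70Ba and Hsp70Bb), against 0.976% of 4506 genes. A member that was tested only through its high library had to be high there, so these counts describe the members and support nothing further.

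The copies differed in thorax, unlike in adult fat body. Hsp70Bb had 33.5 FPKM with dOTC and 48.3 with ND75 RNAi, against 2.85 in the control, ratios of 11.8 (8.28 to 17.3) and 17.0 (11.9 to 25.0). Hsp70Ba had 9.75 and 14.0 FPKM in the dOTC and ND75 RNAi libraries, against 1.096 in the control, ratios of 8.90 (4.99 to 17.3) and 12.8 (7.10 to 24.9). The divergent pair had lower ratios. Hsp70Aa had 19.6 FPKM with dOTC and 13.6 with ND75 RNAi, against 5.47 in the control, and Hsp70Ab had 20.5 and 13.8, against 5.81. Their ratios were 3.58 and 3.53 for dOTC and 2.48 and 2.37 for ND75 RNAi. Hsp70Bbb and Hsp70Bc had 5.99 to 6.18 FPKM in the stressed libraries, against 1.80 and 1.42 in the control. Without Hsp70Bb the ratio of the remaining sum was 3.97 (3.37 to 4.68) for dOTC and 3.44 (2.87 to 4.13) for ND75 RNAi, and without both Hsp70Ba and Hsp70Bb it was 3.595 (3.03 to 4.28) and 2.73 (2.25 to 3.33).

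The share of single copies in the Hsp70 sum made the same distinction. Hsp70Bb held 35.1% of the summed FPKM with dOTC (exact Clopper-Pearson interval of its share of fragments 32.0% to 37.8%) and 47.4% with ND75 RNAi (43.5% to 51.2%), against 15.4% in the control (10.8% to 20.6%). It held 54.6% in WT larvae with RU486 (47.8% to 60.6%), against 15.8% without (9.82% to 22.6%). In PGAM5 null larvae it held 20.4% with RU486 (11.17% to 33.4%), against 13.9% without (7.84% to 21.5%), which overlapped. In the 4 adult fat body libraries its share was 11.4% to 12.4%, although the Hsp70 sum itself spanned 26.7 to 1654 FPKM. The libraries with a high share of Hsp70Bb were those of animals with UAS-dOTC or ND75 RNAi collected on RU486, with the PGAM5 null larvae as the exception.

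Hsp70Ba followed Hsp70Bb in part: it was 1.63 and 2.28 times Hsp70Bbb with dOTC and ND75 RNAi, against 0.609 in the control, and 2.26 times in WT larvae with RU486, against 0.875 without. Within each pair of the remaining copies the proportions were nearly fixed. The estimated fragments of Hsp70Ab were at most 1.06 times those of Hsp70Aa in any of the 11 libraries, and in none were they lower by a whole fragment, and Hsp70Bc had 0.790 to 1.08 times the FPKM of Hsp70Bbb. Between the clusters the proportions spread more where fragments were few. Hsp70Aa was 3.27 times Hsp70Bbb with dOTC and 2.21 times with ND75 RNAi, against 3.04 in the control. It ranged over 1.38 to 3.06 times in larvae and 2.79 to 3.04 times in adult fat body. In larvae these ratios rest on 14 to 34 fragments of Hsp70Aa and 6 to 17 of Hsp70Bbb. No interval was computed for them, so the spread was not separated from counting error. Reads shared by near-identical copies are divided among them by the quantification, so a single copy's value is uncertain, and equal values within a pair are not independent measurements. As background, many UAS vectors place the transgene behind the core promoter and leader of an Hsp70 gene. Vector sequences were not used here, and their part in the Hsp70Bb values was not tested.

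**Figure D5:**
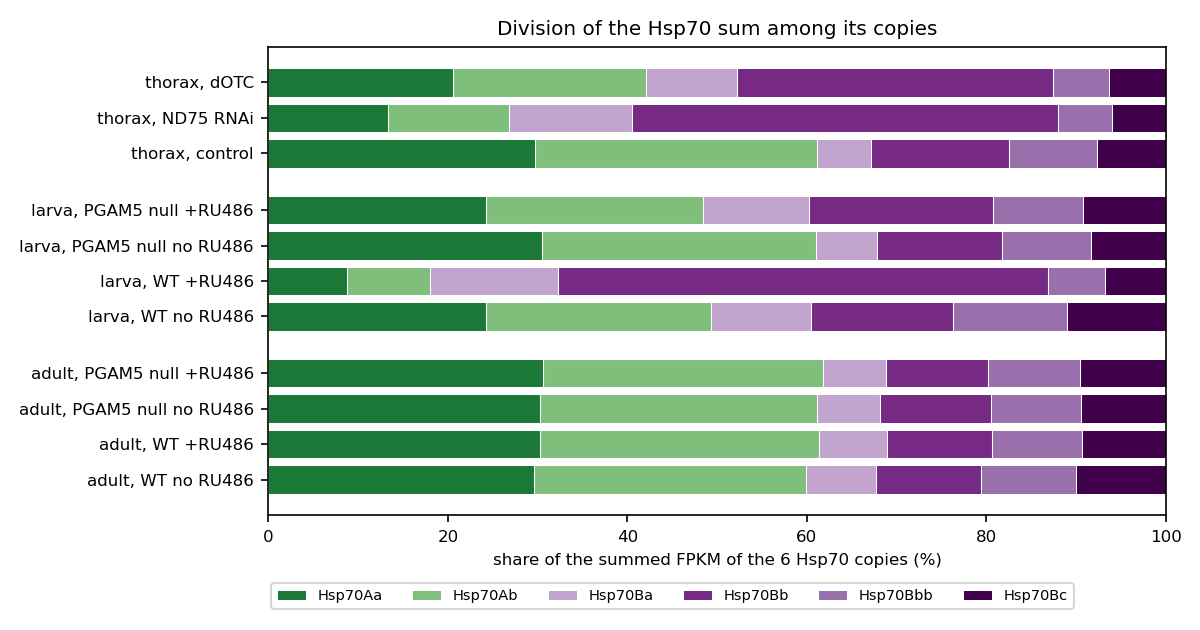
Share of each copy in the summed FPKM of the 6 Hsp70 copies (%), 1 bar per library, from thorax at the top to adult fat body at the bottom. Hsp70Bb takes 35.1% and 47.4% in the stressed thorax libraries and 54.6% in WT larvae with RU486, and 11.4% to 20.4% in the other 8 libraries.

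Several heat shock genes that were higher with RU486 in WT adult fat body were not higher in the stressed thorax libraries. DnaJ-1 was at 44.4 FPKM with dOTC and 41.7 with ND75 RNAi, against 55.8 in the control, and Hsp83 was at 197 and 152, against 237. Hsp22 was at 109 and 49.9 FPKM, against 170, and Hsp26 at 19.5 and 15.9, against 35.2. Above the control were stv, at 121 FPKM with dOTC and 79.8 with ND75 RNAi, against 69.9, and Hsromega, at 177 and 150, against 102. Small heat shock proteins were mixed. Of 11 at 1 FPKM or more in either library of the pair, 4 had a log2 ratio above 0 with dOTC and 3 with ND75 RNAi. CG14207, picked after its values were seen, was at 373 FPKM with dOTC and 179 with ND75 RNAi, against 163. Likewise l(2)efl was at 540 and 282, against 290. None of the 6 tested small heat shock proteins was called higher in either library. The same held for the 6 tested cognates, 12 tested Hsp40 proteins and 11 tested Hsp90 and other co-chaperones. Over all tested genes only 1.02% were called higher with dOTC and 0.255% with ND75 RNAi, so lists this short would rarely hold a call. Called lower were 2 of the 6 small heat shock proteins with ND75 RNAi (Hsp22 and Hsp26), against 8.64% of genes. With dOTC 1 of the 12 Hsp40 proteins was called lower, l(2)tid, against 6.66% of genes. The control thorax held more RNA of other organs. The gut markers summed to 247 FPKM with dOTC and 102 with ND75 RNAi, against 1608 in the control, with 8 of 9 called lower in both, and the ovary markers to 9.74 and 21.3, against 288. The 5 hemocyte markers summed to 122 FPKM with dOTC and 81.6 with ND75 RNAi, against 68.7, and to 14.1 to 36.9 in fat body. The muscle markers summed to 9702 FPKM with dOTC and 22307 with ND75 RNAi, against 13059. The part of these differences in the Hsp70 values was not tested.

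Across all 11 libraries the Hsp70 sum ran from 6.80 FPKM in PGAM5 null larvae with RU486 to 1654 in WT adults with RU486. Next came PGAM5 null adults without RU486 (241), WT adults without (128), ND75 RNAi thorax (102), dOTC thorax (95.4), PGAM5 null adults with RU486 (26.7), control thorax (18.5) and the larvae. The intervals of neighbours overlapped between both stressed thorax libraries and among the 4 larval libraries, and elsewhere they did not. For Hsp68 the order was WT adults with RU486 (658), PGAM5 null adults without (60.7), WT larvae without (40.6), PGAM5 null larvae with (33.7) and without (33.2), WT adults without (23.1), WT larvae with (13.8), dOTC thorax (12.1), ND75 RNAi thorax (7.25), PGAM5 null adults with RU486 (6.30) and control thorax (4.68). Neighbours overlapped among the first 3 larval libraries, between WT larvae with RU486 and dOTC thorax, and among the last 3. The same library was thus highest for both, and levels between tables are set side by side only as each table's own FPKM.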

How the data were processed

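RNA from adult thorax (3 libraries) and from larval and adult fat body (8 libraries) was sequenced from TruSeq libraries, and the submitters' notes name Bowtie, TopHat and Cufflinks. The authors deposited FPKM, fragments scaled to transcript length and library size, in 3 tables, with reads mapped to release 5 of the genome. Strand was not stated. No counts were used here. Samples were grouped by their labels, 1 library per group, and 10 pairs of libraries were compared within tables. No p-value was computed.

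Fragment numbers per library were inferred from the spacing of low FPKM over 8091 genes with 1 transcript in a later annotation, used for transcript lengths, strand and arm only. Among genes below 5.5 fragments, 77.2% to 84.6% came within 0.1 of a whole number, too few to treat the values as recovered counts. Ratios carry exact conditional binomial intervals and levels exact Poisson intervals at 95%, from these estimates. The procedure was tested on simulated data. Calls needed 10 FPKM in the denominator and a ratio of at least 3, or at most 1/2. The members and the 14 lists (151 of 159 symbols matched, most of the others being second names of genes already matched) were chosen with earlier results of these data known. Beyond the members, up to 4 genes per list with the largest change in adult WT, Hsf, Hsromega and the 8 genes of most similar pattern were eligible to be named; any other gene named was picked with its values in view. Alternatives varied the filter, fold, pseudocount, scaling and how the copies were combined. Calculations used scipy 1.17.1, pandas 2.3.3 and numpy 2.4.6 in Python 3.11.15, with matplotlib 3.10.9 for plots. Sequences of the genes were not used here.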

Additional observations from a re-analysis of the deposited data

Results flagged for a closer look

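The RU486 ratios of adult fat body had opposite directions in the genotypes for every member: above 1 in WT and below 1 in PGAM5 null. WT over PGAM5 null, the ratio of ratios was 118.1 for Hsp70Aa, 118.2 for Hsp70Ab, 114.1 for Hsp70Ba, 127.7 for Hsp70Bb, 106.7 for Hsp70Bbb, 108.9 for Hsp70Bc, 274.8 for Hsp68 and 116.7 for the Hsp70 sum. With 1 library per condition this difference was not tested, and the Hsp70 copies, which share reads, are not independent measurements of it.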

How the results depend on the processing

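No paired analysis was possible because each group is 1 library and the labels carry no replicate numbers. The adult RU486 directions in both genotypes and the thorax directions held under every scaling, pseudocount and combination of the copies. Adding 1 FPKM moved none of the 20 ratios beyond its counting interval. Scaled to the median ratio, the Hsp70 sum ratio was 1.79 in WT larvae (RU486 over none), 13.7 in WT adults and 2.02 for PGAM5 null over WT adults without RU486; the Hsp68 ratio was 0.482 in WT larvae and 1.30 in PGAM5 null larvae. Scaled to the upper quartile, the sum ratio was 6.53 for ND75 RNAi, 1.94 in WT larvae, 15.05 in WT adults and 2.26 for PGAM5 null over WT adults without RU486, and the Hsp68 ratio 0.523 in WT larvae, which ended its call as lower, 1.28 in PGAM5 null larvae, 33.2 in WT adults and 3.15 for PGAM5 null over WT adults without RU486, which passed 3-fold. The mean log2 ratio of the copies, as a ratio, gave 3.87 for dOTC and 3.88 for ND75 RNAi, 1.014 in WT larvae, 12.02 in WT and 0.139 in PGAM5 null adults, and, for PGAM5 null over WT with RU486, 0.791 in larvae and 0.0207 in adults. In settings chosen after seeing the data, the sum without Hsp70Bb gave 3.97 for dOTC, 3.44 for ND75 RNAi, 0.682 in WT larvae, which reversed, and 0.943 for PGAM5 null over WT larvae with RU486. Without Hsp70Ba as well it gave 3.595, 2.73, 0.539, which reversed, and 1.17, which also reversed. Those larval ratios rest on few fragments. The counts of all genes called higher follow the filter, because a lower minimum tests more genes. They are given in the order dOTC, ND75 RNAi, RU486 in WT larvae, PGAM5 null larvae, WT adults and PGAM5 null adults, then PGAM5 null over WT larvae and adults without RU486 and larvae and adults with it. As deposited they were 44, 11, 45, 75, 16, 18, 28, 6, 65 and 13. With 10 FPKM in either library and 1 FPKM added they were 147, 44, 113, 157, 47, 143, 134, 52, 462 and 133. With a minimum of 1 FPKM they were 156, 53, 129, 163, 57, 146, 93, 56, 922 and 141, and with any value above 0 they were 384, 231, 267, 325, 182, 679, 284, 215, 1900 and 652. At a fold of 2 they were 174, 47, 169, 192, 24, 54, 77, 75, 109 and 73. After median scaling the counts that moved were 22 for ND75 RNAi, 143 and 124 in WT and PGAM5 null larvae and 12 for PGAM5 null over WT adults without RU486. Depth limits the larval copies most: single copies rest on 5 to 133 fragments.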

Other observations

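Chaperone genes known for expression in testis were read in larvae after their values were seen. Hsc70-2 had 2.76 FPKM in WT larvae with RU486, against 22.5 without, and 14.6 in PGAM5 null larvae with RU486, against 16.9 without. Hsp60B had 2.45 FPKM in WT larvae with RU486, against 24.6 without, and 15.3 in PGAM5 null larvae with RU486, against 19.2 without. Hsp60C had 6.83 FPKM in WT larvae with RU486, against 58.2 without, and 34.3 in PGAM5 null larvae with RU486, against 55.8 without. Hsp68 was also lowest in WT larvae with RU486, at 13.8 FPKM, and highest in WT larvae without RU486, at 40.6 FPKM. Unlike Hsc70-2, Hsp60B and Hsp60C, it was not lower with RU486 in PGAM5 null larvae (33.7 FPKM, against 33.2 without). In the WT pair 30.5% of 5225 tested genes were called lower. The part of testis RNA in the larval Hsp68 values was not tested. Hsp60B and Hsp60C were at 0 to 0.0764 FPKM in thorax and adult fat body. In thorax the cognate Hsc70-1, whose levels were also noticed afterwards, had 175 FPKM with dOTC and 131 with ND75 RNAi, against 132 in the control, and 0.259 to 3.71 FPKM in fat body.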
